A study of Bos taurus with 8 samples.

Results

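Immediate early genes and dissociation response genes were followed through 7 cell types of bovine muscle and through culture. The module held 39 genes, taken by symbol and chosen with earlier results of these data known. Of these, 38 had a row among the 21880 genes of the deposited matrices. IER5 was not analysed here. The 38 measured members were ordered by role: AP-1 subunits and their partner ATF3 (6 genes), EGR, NR4A and KLF transcription factors (10), other transcription factors (5 measured), feedback inhibitors (7), growth arrest and survival factors (5), heat shock and stress translation genes (4) and the splicing kinase CLK1.

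Immediate early genes are switched on within minutes of a stimulus, from transcription factors already present in the cell and without new protein synthesis. Their messenger RNAs are short-lived, and many of them encode transcription factors or inhibitors of the very kinases that induced them. Enzymatic digestion and warming of tissue are known to induce them, together with heat shock chaperones, so the levels in freshly isolated cells can carry both the state in the tissue and the isolation itself.

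The cells came from the semitendinosus muscle of 10 Belgian Blue cattle, 5 calves and 5 adults. Tissue was digested with collagenase for 1 h at 37 °C, filtered and depleted of red blood cells, and unsorted mononuclear cells were sequenced directly (muscle) or after they had grown for 72 h on fibronectin in medium without serum (passage 0, P0). Cultures were then sorted or left unsorted and sampled again at passages 2, 5 and 8 (P2, P5, P8), as sorted satellite cells (SCs, the muscle stem cells; 3 donors, on laminin-521), sorted fibro-adipogenic progenitors (FAPs, stromal progenitors; 3 donors, on collagen I) or unsorted cells (3 donors, on fibronectin). At each timepoint the cells of all donors were pooled in equal ratios into 1 droplet library and assigned back to donors by genotype, so timepoint, library and harvest cannot be told apart, and how the cultured cells were detached for sequencing was not given in the sources used here. 1 donor was sampled in muscle and not in culture.

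Values are counts of unique molecular identifiers (UMIs), summed over the cells of 1 donor and 1 deposited cell type and given scaled to 1000000 UMIs in that sum (CPM), and a donor entered with at least 10 cells. The muscle library held 4395 annotated cells with a median of 4184 UMIs each, and the culture libraries 2772 to 10405 cells with medians of 18340 to 27239.5 UMIs. Cell barcodes shared by pairs of libraries numbered 4 to 29. Muscle held 1231 FAPs, 647 SCs, 1166 vascular endothelial cells (VECs), 548 smooth muscle-mesenchymal cells (SMMCs), 403 macrophages, 188 lymphocytes and 81 lymphatic endothelial cells (LECs), the last in only 4 donors with 10 cells or more. Myocytes, neutrophils, tenocytes and glial cells had too few cells per donor to be followed alone. Defining markers matched the deposited names of the 7 types in muscle. FAP markers (PDGFRA, DCN, LUM) summed to 19980 to 24776 CPM in FAPs and to at most 1352 in any sum of the other types, and SC markers (MYF5, PAX7, CHRDL2, CALCR) to 685.6 to 2536 in SCs and at most 129.3 elsewhere. VEC markers (PECAM1, CDH5, VWF) summed to 1733 to 2462 in VECs and at most 1305 elsewhere, in LECs, and SMMC markers (ACTA2, MYH11, RGS5, CNN1) to 6422 to 23766 and at most 646.4. The macrophage list (CD68, CD14, CSF1R, PTPRC) summed to 1275 to 2384 and at most 861.7, in lymphocytes, the lymphocyte list (CD3E, CD2, CD79A) to 617.5 to 1272 and at most 94.82, and the LEC list (PROX1, MMRN1, LYVE1) to 3884 to 8366 and at most 1204, in macrophages. At P0 the SC markers had a sum of 22.82 to 106.0 in SCs, against 1.746 to 5.716 in FAPs, and FAP markers summed to 973.3 to 2009 in SCs and to 880.6 to 1918 in macrophages, where P0 FAPs themselves held 2829 to 4432. Muscle-fibre transcripts (ACTA1, CKM, MYH1, MB), which none of the followed types should make, summed to 604.4 to 1009 in muscle FAPs and 254.4 to 755.4 in muscle SCs, and to at most 0.8708 in both at P0. Whether these transcripts came from free RNA, and the part of such RNA in the results below, was not tested.

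In freshly digested muscle the 38 members together took a median of 3.498% of all UMIs in SCs (2.409% to 4.905% across 10 donors), 3.233% in VECs, 3.199% in SMMCs, 2.912% in macrophages and 2.266% in LECs. The share was lower in lymphocytes (1.457%) and FAPs (1.408%, 0.9938% to 2.035%). After 72 h in culture it was 0.3285% to 0.4164% in the 6 types that remained. All of the 10 FAP sums lay below all 10 SC sums in muscle, and all muscle sums above all P0 sums. These are shares of RNA. Counted per cell, member UMIs had a median of 88.6 in muscle FAPs and 84.45 in P0 FAPs, and of 144.2 and 76.52 in SCs, while total UMIs per cell rose from a median of 6213 to 24188 in FAPs and from 3861 to 18203 in SCs. The member CEBPD made up much of the P0 sums. Its mean was 832.6 CPM in muscle FAPs and 1318 in P0 FAPs, where all members had median sums of 14078 and 3559. In SCs its means were 1542 and 1583, and the median sums 34985 and 4052. Sums without CEBPD are not given here. Fewer transcripts per cell and a larger total cannot be told apart from a relative level alone.

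The AP-1 subunits form the dimeric factor that binds early response promoters. JUN ranged over donors from 1226 to 2506 CPM in FAPs (median 1937), from 4242 to 7547 in SCs (median 6437), from 3419 to 7067 in VECs (median 5829) and from 4542 to 12129 in SMMCs (median 6297). Macrophages held 2597 to 5377 (median 3427), lymphocytes 704.4 to 2659 (median 963.7) and the 4 LEC sums 1974 to 4918. No FAP donor reached the lowest SC, VEC, SMMC or macrophage donor. At P0 the medians ran only from 186.9 in SMMCs to 265.9 in macrophages, below every muscle value of every type.

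FOS, the partner of JUN in AP-1, ranged from 590.4 to 2153 in muscle FAPs (median 908), from 1591 to 3276 in SCs (median 2302), from 1639 to 5009 in SMMCs (median 2479) and from 352.2 to 811.5 in lymphocytes (median 545.7). At P0 it ranged from 7.537 to 23.98 in FAPs (median 11.62) and from 14.13 to 48.5 in SCs (median 25.3). The groups did not overlap in either type. JUNB had medians of 1371 in muscle FAPs, 3233 in SCs and 3756 in SMMCs, and JUND, the subunit that is usually present before any stimulus, of 700.3, 1808 and 2616. FOSB, a further FOS family member, had medians of 126 in FAPs and 773.7 in SMMCs.

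**Figure D1:**
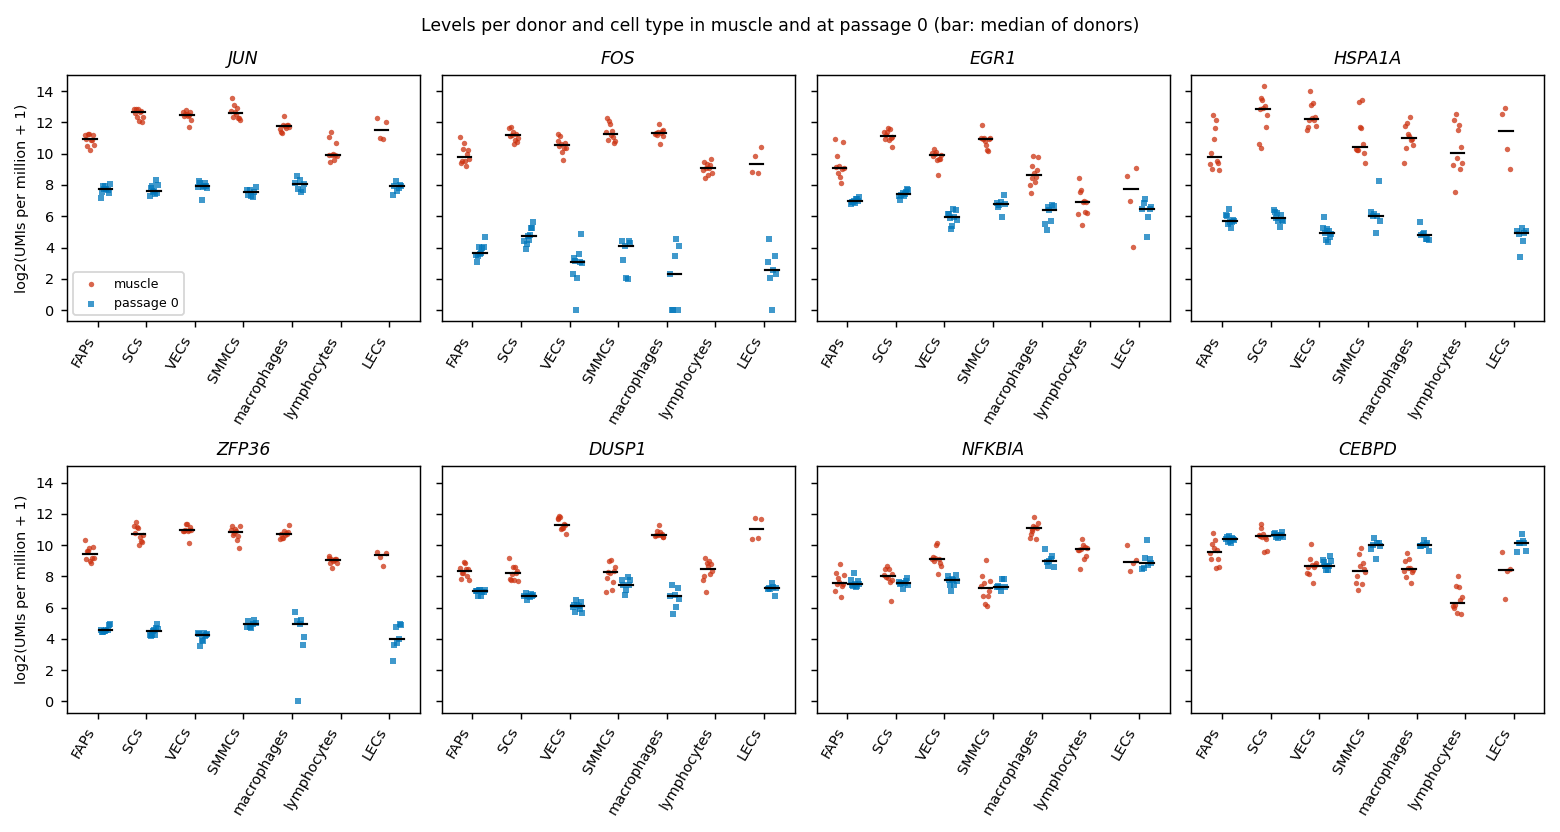
Levels of 8 members (JUN, FOS, EGR1, HSPA1A, ZFP36, DUSP1, NFKBIA, CEBPD) as log2 of CPM plus 1, by cell type. Each point is 1 donor, red circles are muscle, blue squares are P0 and bars are medians. For JUN every P0 point lies below every muscle point, whereas for CEBPD the P0 medians in FAPs (1328) and macrophages (1004) lie above the muscle medians (762.2 and 356.4).

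EGR1, a zinc-finger factor induced through the ERK pathway, ranged from 1375 to 3213 in muscle SCs (median 2258) and from 284.6 to 1943 in FAPs (median 554). It ranged from 402.2 to 1274 in VECs (median 948.4) and from 42.73 to 342.3 in lymphocytes (median 119.1). The lowest SC donor was above every VEC and lymphocyte donor and overlapped the FAP range. SMMCs, at 1141 to 3719 (median 1955), overlapped the SC range. HSPA1A, the stress-inducible HSP70 chaperone, had the widest spread between donors of the 12 members highest in muscle, in each of FAPs, SCs and VECs: 495.7 to 5694 in FAPs (median 912.3), 1300 to 20870 in SCs (median 7502) and 2938 to 16368 in VECs (median 4850). Mammals carry near-identical copies of this gene, so UMIs counted for it are uncertain to that extent.

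Of 33 members that passed the filter on low counts in muscle, 32 differed between the 7 types (edgeR quasi-likelihood F test over all types, adjusted p below 0.05 and a range over 1 on the log2 scale), where 78% of all 6588 genes tested did. CLK1, a kinase whose own splicing responds to heat and stress, was the exception, with medians of 271.5 to 404.9 CPM in all 7 types. By mean level over donors the highest type was SMMCs for 10 of the 38 members, VECs and macrophages for 9 each, SCs for 6, lymphocytes for 3, LECs for 1 and FAPs for 0. The lowest type was lymphocytes for 13 members and FAPs for 9. Ranks of all genes were not set beside these counts. LEC means rest on 4 donors, and EGR2, with 0 UMIs in SMMCs and in LECs, was tied for the lowest type.

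Each type was then compared with all other cells of the same donors (the rest), again by edgeR's quasi-likelihood test with Benjamini-Hochberg adjustment over all genes tested. Calls needed an adjusted p below 0.05 together with a log2FC beyond 1 in size. In FAPs 18 of 33 tested members were lower than in the rest and 0 were higher, where 12.5% of all genes were lower and 9.36% higher. The median member log2FC was −1.11, against −0.03 over all genes. The lower members were spread over every role but the splicing kinase: 4 of 6 tested AP-1 genes, 5 of 8 EGR, NR4A and KLF factors, 4 of 5 feedback inhibitors, 2 of 5 growth arrest and survival factors, 2 of 4 heat shock genes and the factor CSRNP1.

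DUSP2, a nuclear phosphatase that switches off MAP kinases in immune cells, ranged from 0 to 4.649 in FAPs and from 95.2 to 376.2 in the rest (log2FC −6.18 ± 0.31 SE, adjusted p = 8.89e-14). NR4A3, an orphan nuclear receptor, ranged from 0 to 5.745 and from 15.42 to 57.91 (log2FC −3.72 ± 0.34, adjusted p = 1.09e-09). ATF3, a stress-induced partner of JUN, ranged from 22.29 to 120.8 in FAPs and from 394.4 to 583.8 in the rest (log2FC −2.75 ± 0.21, adjusted p = 1.45e-10). None of these ranges overlapped. DUSP2 and NR4A3 were not low in FAPs alone. Mean DUSP2 was 1.889 CPM in FAPs and 0.7353 in SCs, against 708.4 in macrophages and 210.5 in lymphocytes. Mean NR4A3 was 1.767 in FAPs, 1.894 in SCs and 0 in LECs, against 132.1 in SMMCs, 52.39 in macrophages and 41.27 in lymphocytes. JUN was lower by a log2FC of −1.30 ± 0.13 (adjusted p = 6.1e-09) and HSPA1A by −1.27 ± 0.52 (adjusted p = 0.0482, lower in 10 of 10 donors). FOS had a log2FC of −0.84, EGR1 of −0.59, MYC of 0.09 and CEBPD of 0.47, none of them called. JUNB, not called here, was lower with donor as a replicate block (−1.003, adjusted p = 1.6e-08).

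In SCs 3 of 31 tested members were higher and 6 lower than in the rest, where 5.72% of all genes were higher and 15.8% lower. CEBPD, a C/EBP factor of acute-phase and adipogenic programmes, ranged from 741.4 to 2591 in SCs (median 1511) and from 280.6 to 983.7 in the rest (median 478.4), a log2FC of 1.42 ± 0.25 (adjusted p = 5.19e-05). EGR1 stood at 1375 to 3213 against 391 to 1152 in the rest (log2FC 1.44 ± 0.18, adjusted p = 9.51e-07). Both were higher in 10 of 10 donors, and the EGR1 ranges did not overlap. DNAJB1, the HSP40 co-chaperone of HSPA1A, was higher in 9 of 10 donors (log2FC 1.53 ± 0.44, adjusted p = 0.00658), whereas HSPA1A itself, at a log2FC of 1.19 ± 0.49, had an adjusted p of 0.053 and was called with donor as a replicate block (log2FC 1.15, adjusted p = 0.00947). Of 27 SC members tested with sums thinned to the smallest total 5 were called, in either direction, beside 11.6% of all genes.

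The 6 lower SC members were 3 feedback inhibitors (DUSP1, DUSP2, NFKBIA), the receptors NR4A1 and NR4A2, and GADD45B. NR4A1 ranged from 34.12 to 103.9 in SCs and from 236.6 to 748.4 in the rest (log2FC −2.80 ± 0.21, adjusted p = 1.01e-10). GADD45B, a growth arrest and DNA damage protein, had a log2FC of −2.35 ± 0.16, DUSP1, the main nuclear MAP kinase phosphatase, of −2.01 ± 0.19, NR4A2 of −1.91 ± 0.26 and NFKBIA, the inhibitor that holds NF-κB in the cytoplasm, of −1.27 ± 0.20. DUSP2 had 1 UMI in all SCs against 2697 in the rest, which is 416 times lower in CPM (exact 95% interval 74.6 to 16400, counting error only).

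VECs had 6 higher and 1 lower of 34 tested members, where 11.2% and 12.5% of all genes were. DUSP1 ranged from 1646 to 3706 in VECs (median 2519) and from 418.7 to 883.5 in the rest (log2FC 2.17 ± 0.17, adjusted p = 1.26e-10). KLF2, the flow-responsive factor of endothelium, ranged from 14.54 to 96.11 in VECs (median 46.51) and from 7.412 to 16.27 in the rest (log2FC 2.18 ± 0.26, adjusted p = 6.45e-08). The DUSP1 ranges did not overlap and the KLF2 ranges did at their ends. KLF4 (log2FC 1.54 ± 0.18), CSRNP1 (1.46 ± 0.17), NR4A1 (1.44 ± 0.25) and the survival kinase PIM3 (1.17 ± 0.15) were the other higher members, and DUSP2 was the lower member (−1.82 ± 0.27). With donor as a replicate block HSPA1A was also higher (log2FC 1.16, adjusted p = 0.00268). DUSP1, KLF2 and KLF4 were not particular to VECs. Their means in the 4 muscle LEC sums were 2341, 43.49 and 756.5 CPM, near the VEC means of 2694, 52.51 and 885.4. LECs and VECs were each part of the rest that the other was compared with.

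SMMCs had 6 higher and 4 lower of 32 tested members, where 8.04% and 13.4% of all genes were. NR4A3 ranged from 49.54 to 222.1 in SMMCs (median 125.3) and from 6.76 to 22.34 in the rest (log2FC 3.12 ± 0.25, adjusted p = 1.08e-10), with no overlap. BTG2, an antiproliferative mRNA deadenylation factor, had a log2FC of 1.78 ± 0.27, NR4A1 of 1.62 ± 0.23, the growth factor-induced MYC of 1.51 ± 0.21, ATF3 of 1.18 ± 0.14 and JUND of 1.08 ± 0.12. The 4 lower members were DUSP2 (−3.41 ± 0.46), DUSP1 (−1.98 ± 0.25), NFKBIA (−1.82 ± 0.27) and KLF4 (−1.46 ± 0.22). DUSP1 and KLF4, higher in VECs, were lower in SMMCs. With sums thinned to the smallest total 5 of 28 members and 14.8% of all genes were called, and with donor as a replicate block CEBPD was also lower (log2FC −1.04, adjusted p = 0.000115).

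Macrophages had 7 higher and 2 lower of 33 tested members, where 11.4% and 18.6% of all genes were. NFKBIA ranged from 1327 to 3573 in macrophages (median 2131) and from 189.6 to 545.8 in the rest (log2FC 2.64 ± 0.19, adjusted p = 3.85e-11). DUSP2 ranged from 421.4 to 941.1 (median 705) against 26.93 to 84.63 (log2FC 4.00 ± 0.19, adjusted p = 1.4e-15). Neither pair of ranges overlapped. NR4A2 (log2FC 1.95 ± 0.18), IER3, a survival factor of NF-κB signalling (1.74 ± 0.12), ATF3 (1.42 ± 0.11), NR4A3 (1.40 ± 0.22) and GADD45B (1.34 ± 0.14) were also higher. EGR1 (−1.16 ± 0.24) and MYC (−1.03 ± 0.21) were lower. Thinning sums to the smallest total left 4 of 27 members and 14.6% of all genes called.

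Lymphocytes had 5 higher and 14 lower of 32 tested members, where 9.19% and 24.3% of all genes were. With DESeq2 scaling, which moved the median of all genes by −0.149, the split was 2 higher and 14 lower. The share of all genes called under that scaling was not set beside it. Relative to the median of all genes the member median was −0.235 and −0.217 under the 2 scalings. With sums thinned to the smallest total 3 of 16 members and 22.7% of all genes were called. With donor as a replicate block HSPA1A was also lower (−1.03, adjusted p = 0.0251). NR4A2 ranged from 160.5 to 329.3 in lymphocytes and from 33.48 to 65.23 in the rest (log2FC 2.31 ± 0.18, adjusted p = 1.84e-11), and BTG1, an antiproliferative gene of quiescent lymphocytes, from 1103 to 1773 and from 617.1 to 899.8 (log2FC 1.28 ± 0.10). Both genes were apart in every donor. EGR1 (−2.85 ± 0.25), CEBPD (−2.58 ± 0.28), KLF4 (−2.56 ± 0.36) and IER3 (−2.20 ± 0.21) were lower.

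In the 4 donors with enough LECs, 1 of 33 tested members was higher and 5 lower, where 4.26% and 8.63% of all genes were. KLF6, a Krüppel-like factor of injured endothelium, stood at 1215, 1566, 2103 and 2941 in the 4 LEC sums and at 513.7 to 1082 in the rest (log2FC 1.29 ± 0.33, adjusted p = 0.0278), and its call was lost without donor 7 (adjusted p = 0.0824) or donor 10 (0.0645). JUNB stood at 783.2, 895.8, 906.2 and 1247 against 1976 to 2650 (log2FC −1.39 ± 0.16, adjusted p = 1.41e-05). ZFP36 was lower by −1.29 ± 0.23, and BTG1 by −1.001 ± 0.192, a call lost without donor 4 or donor 8 (log2FC −0.893 and −0.961). DUSP2 had 2 UMIs in LECs, 15.0 times lower than the rest (interval 4.14 to 124). NR4A3 had 0 UMIs, at least 2.02 times lower with 3 counts over the group as the floor, and its call was lost without any 1 of the 4 donors (adjusted p 0.0529 to 0.0947). With donor as a replicate block 13 members were called, 1 of them higher, and 16.3% of all genes in either direction, where the fit without it called 6 members and 12.9%. With sums thinned to the smallest total, which also leaves fewer genes to test, 0 of 24 members and 4.25% of all genes were.

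**Figure D2:**
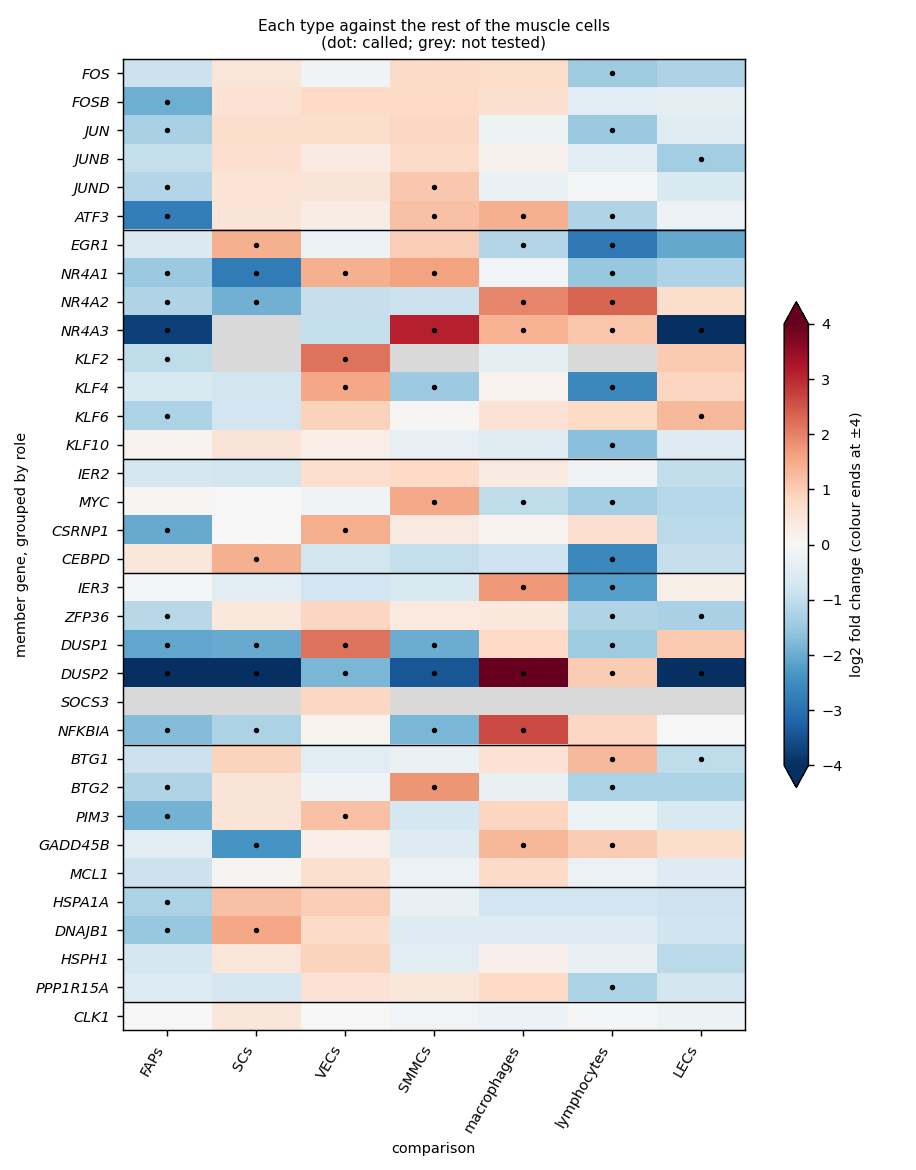
Difference in level of 34 tested members (rows, by role) between each cell type and all other cells of the same donors in muscle (columns), as log2FC from edgeR, red higher and blue lower, limited to ±4. Dots mark called members and grey cells were not tested. The FAP column has 18 called members and all are lower, and DUSP2 is lower in 5 types and higher in macrophages and lymphocytes, its colours resting on 1 UMI in SCs and 2 in LECs.

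The spread between donors was not the same for all members. HSPA1A differed between the highest and the lowest donor by 11.46 times in FAPs, 16.04 times in SCs and 5.57 times in VECs, and JUN by 2.043, 1.779 and 2.067 times. Donor levels of HSPA1A, FOS and EGR1 were related across FAPs, SCs and VECs in 9 relations over 10 donors each, all from the muscle library. HSPA1A in FAPs and VECs gave Pearson's r = 0.826 (permutation p = 0.00416, adjusted over 9 relations 0.0374) and Spearman's rho = 0.709 (permutation p = 0.02733, adjusted 0.1128). Without the 2 donors farthest from the median in FAPs r was 0.547. HSPA1A in FAPs and SCs gave r = 0.758 (permutation p = 0.01165, adjusted 0.0524) and rho = 0.855 (permutation p = 0.00286, adjusted 0.0257), with r = 0.621 without 2 donors, and with at least 30 cells per sum its rho of 0.85 over 9 donors had an adjusted permutation p of 0.0552. For EGR1 in FAPs and SCs r was −0.339 (permutation p = 0.3352, adjusted 0.3771) and rho −0.115 (permutation p = 0.76, adjusted 0.76). The other 6 relations had r from −0.032 to 0.717 and adjusted permutation p from 0.056 to 0.9291. Without 2 donors their r ran from −0.342 (EGR1 in SCs and VECs) to 0.847 (EGR1 in FAPs and VECs). FOS in FAPs and SCs had r = 0.471, which was 0.042 without 2 donors and 0.727 over 9 donors with at least 30 cells per sum.

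Age class was compared over 5 calves and 5 adults in muscle. By edgeR 0 members were called, with 30 tested in FAPs, 29 in SCs and 32 in VECs, where 1.32%, 0.0963% and 0.796% of all genes were called. DESeq2 also called 0 in each. At an unadjusted p below 0.05 there were 0, 1 (KLF6, log2FC −0.58 ± 0.24) and 1 (BTG2, 0.68 ± 0.30). The largest differences were HSPA1A in FAPs (calf over adult log2FC 1.37 ± 0.81) and SCs (1.31 ± 0.62), and HSPH1, an HSP110 chaperone, in VECs (1.25 ± 0.59). These standard errors leave room for differences above 2-fold in the heat shock genes.

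After 72 h in culture most members were lower in every type that could be compared with its muscle counterpart. In FAPs 28 of 36 tested members were lower and 0 higher at P0, where 21.5% of all genes were lower and 23.8% higher. In SCs 26 of 33 were lower (19.7% of all genes), in VECs 28 of 31 (19.6%), in SMMCs 24 of 30 (21.3%), in macrophages 28 of 31 (20.4%) and in LECs 20 of 27 (14.8%, 7 donors against 4). The only higher member was CEBPD, in SMMCs, macrophages and LECs, where 15.1%, 14.3% and 14.8% of all genes were higher, and 0 members were higher in SCs and VECs, where 19.1% and 15.6% of all genes were. Median member log2FC was −2.29 in FAPs, −2.98 in SCs, −3.20 in VECs, −3.60 in SMMCs, −3.75 in macrophages and −2.22 in LECs, against −0.03 to 0.12 over all genes. DESeq2 scaling moved the median of all genes by −0.255 in FAPs and −0.186 in SCs, and relative to that median the member median was −2.41 and −2.40 in FAPs under the 2 scalings and −3.01 and −3.02 in SCs. With every sum thinned to the smallest total, 15 of 30 members were lower and 0 higher in FAPs, where 9.28% of all genes were called in either direction.

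All 6 AP-1 genes were lower at P0 in all 6 types. FOSB had the largest log2FC among members lower in every donor in FAPs, SCs, VECs and SMMCs: in FAPs it ranged from 53.8 to 426.7 in muscle (median 126) and from 0.3967 to 3.382 at P0 (median 0.7995, log2FC −6.97 ± 0.46, adjusted p = 2.62e-17). In VECs FOSB ranged from 191.7 to 1396 in muscle and from 0 to 3.635 at P0 (log2FC −9.67 ± 0.53, adjusted p = 6.86e-12, 10 UMIs at P0). In LECs FOSB had 1 UMI at P0, 683 times lower than in muscle in CPM (interval 120 to 27200). FOS fell by 6.03 on the log2 scale in FAPs, by 6.12 in SCs, by 7.54 in VECs, by 7.79 in SMMCs and by 8.31 in macrophages. JUND, the least changed AP-1 gene in VECs, ranged there from 975.1 to 2519 in muscle and from 276.8 to 406.5 at P0 (log2FC −2.49 ± 0.14), still without overlap.

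Among EGR, NR4A and KLF factors 8 of 9 tested were lower in FAPs, 5 of 7 in SCs, 5 of 6 in VECs, 5 of 6 in SMMCs, 6 of 6 in macrophages and 4 of 5 in LECs. NR4A1 ranged from 86.01 to 519.1 in muscle FAPs and from 1.277 to 2.228 at P0 (log2FC −6.27 ± 0.35, adjusted p = 5.67e-20), and from 368.4 to 1232 and from 1.006 to 10.79 in VECs (log2FC −7.97 ± 0.37). Macrophages had 996 UMIs of NR4A1 in muscle and 2 at P0 (215 times lower, interval 59.5 to 1780) and 444 and 2 of NR4A2 (96.1 times lower, interval 26.4 to 796). KLF6 was not called in FAPs (log2FC −0.27), SCs (−0.35), VECs (−0.88) or SMMCs (−0.84), and it was lower in macrophages (−1.98 ± 0.14) and LECs (−2.22 ± 0.20). NR4A2 in SCs (−1.03) and EGR1 in LECs (−1.60 ± 0.60, adjusted p = 0.055; called without donor 8, −1.964, adjusted p = 0.00114) were the other tested members of this role that were not called. In VECs the KLF6 ranges, 759.8 to 2049 in muscle and 642.2 to 843.7 at P0, overlapped. EGR2 was too low to test throughout, with at most 5 UMIs in any muscle type.

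Feedback inhibitors were split. ZFP36, which destabilises AU-rich mRNAs, was lower in all 6 types, from 468.7 to 1290 in muscle FAPs to 20.31 to 30.18 at P0 (log2FC −4.65 ± 0.21, adjusted p = 4.36e-23) and from 1125 to 2615 in muscle VECs to 10.69 to 20.11 (log2FC −6.96 ± 0.17). DUSP1 was lower in VECs by a log2FC of −5.41 ± 0.18 (50.17 to 89.93 at P0), in LECs by −4.13 ± 0.27 and in macrophages by −4.07 ± 0.19, but only by −1.28 ± 0.21 in SCs and −1.09 ± 0.25 in FAPs, and it was not called in SMMCs (−0.79). All donors of VECs, the type with the highest mean of DUSP1 in muscle, lay below all FAP donors (104.1 to 138.1) at P0. IER3 was not called in any of the 6 types (log2FC −0.99 to 0.51). NFKBIA was not called in FAPs (0.11), SCs (−0.23), SMMCs (−0.07) or LECs (−0.18), and was lower in macrophages (−2.04 ± 0.20), from 1327 to 3573 down to 379.8 to 872.2, and in VECs (−1.57 ± 0.21). DUSP2 fell in VECs from 173 UMIs to 1 UMI (518 times lower, interval 91.7 to 20600) and in macrophages from 421.4 to 941.1 to at most 16.28 (log2FC −7.48 ± 0.34).

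Growth arrest and survival factors were lower for 5 of 5 tested members in FAPs, SCs, VECs, SMMCs and macrophages and for 3 of 4 in LECs, from BTG2 in SMMCs (log2FC −6.16 ± 0.46) to PIM3 in FAPs (−1.14 ± 0.14). BTG1 ranged from 312.7 to 667.2 in muscle FAPs and from 119.7 to 156.5 at P0 (log2FC −1.42 ± 0.15), and from 1060 to 1420 and from 190.5 to 346 in SCs (−1.97 ± 0.14). Heat shock and stress translation genes were lower for 4 of 4 in SCs, VECs and macrophages and for 3 of 4 in FAPs, SMMCs and LECs, where HSPH1 was not called. HSPA1A at P0 ranged from 37.45 to 86.45 in FAPs (log2FC −4.87 ± 0.41), from 39.36 to 84.3 in SCs (−6.78 ± 0.46) and from 19.09 to 60.81 in VECs (−7.67 ± 0.43), below every muscle donor of its type. CLK1 was lower by nearly the same amount in all 6 types (log2FC −3.71 to −3.36). In FAPs it ranged from 219.1 to 411.6 in muscle and from 16.64 to 22.52 at P0.

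CEBPD went the other way. It ranged from 189.6 to 728.3 in muscle macrophages and from 770.5 to 1266 at P0 (log2FC 1.27 ± 0.19, adjusted p = 2.3e-06, higher in 7 of 7 donors), without overlap. In SMMCs it ranged from 138.5 to 881.5 and from 557.6 to 1389 (log2FC 1.35 ± 0.31, adjusted p = 0.00108, 7 of 7 donors). In LECs the log2FC was 1.44 ± 0.41 (adjusted p = 0.0181, 3 of 3 donors with both), lost without donor 8 (adjusted p = 0.0542). In FAPs the log2FC of 0.97 ± 0.24 (adjusted p = 0.00045) was short of the limit of 1 and passed it with donor as a replicate block (1.08, adjusted p = 0.000132), and in SCs and VECs it was 0.31 and −0.04. FAP markers moved with these sums, from 10.3 to 466.5 CPM in muscle macrophages, 38.33 to 1185 in SMMCs and 0 to 60.73 in LECs, to 880.6 to 1918, 481.5 to 1044 and 225.4 to 1119 at P0, with none of the 3 markers at 0, and their part in the CEBPD values was not tested. CEBPB, a related factor, was not called in FAPs or SCs and was too low to test in the other types.

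**Figure D3:**
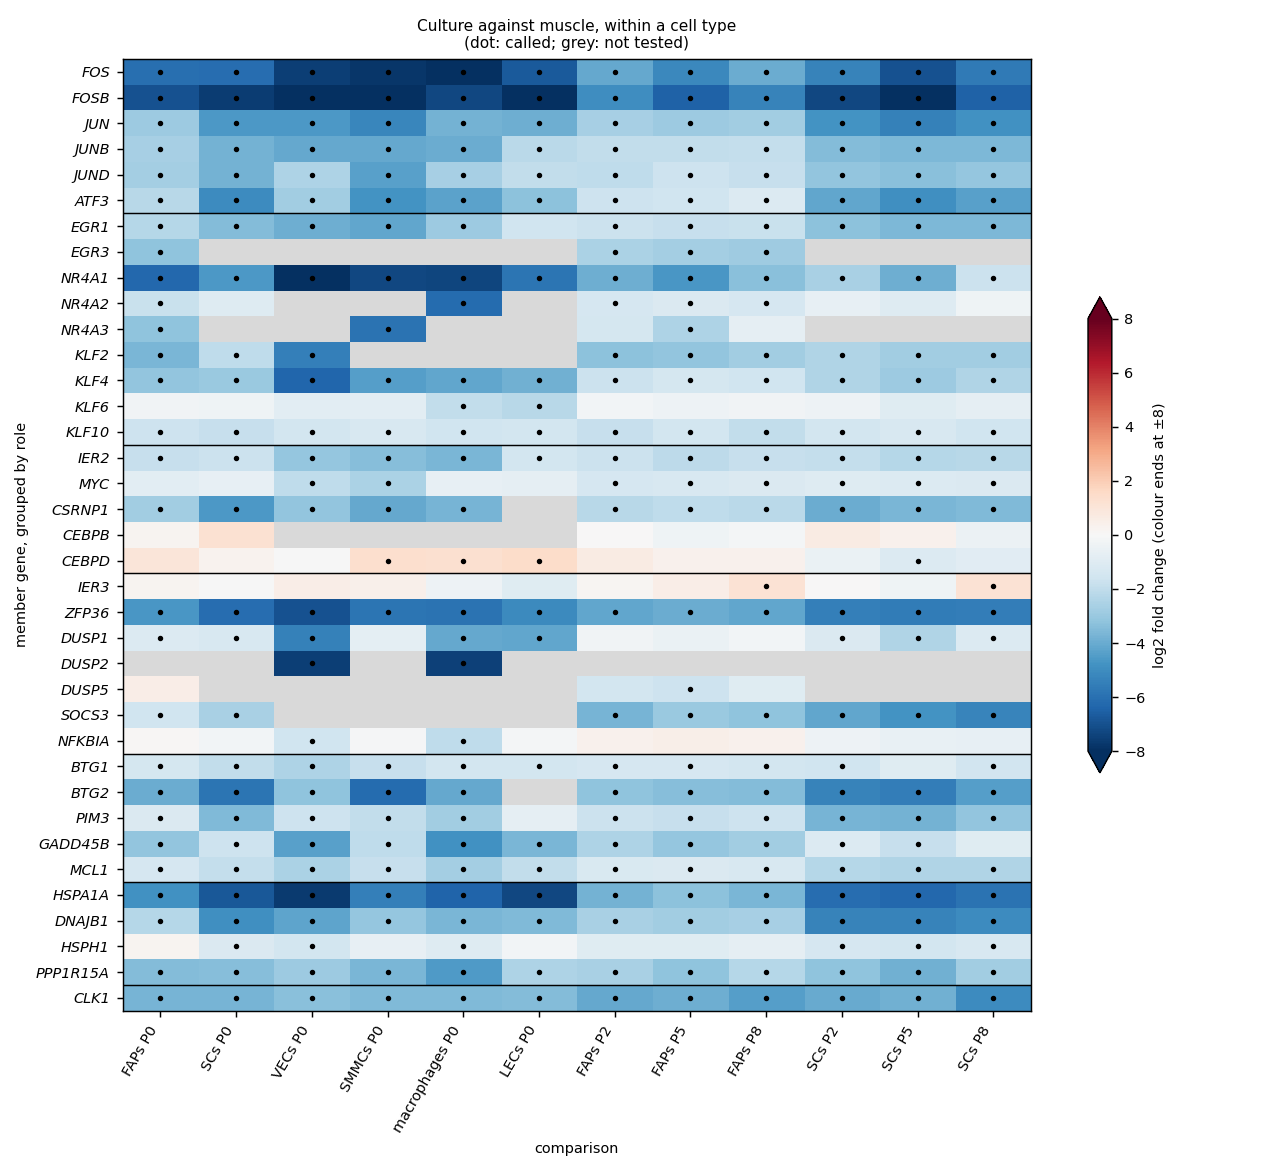
Difference in level of 37 members (rows, by role) between culture and muscle for 6 cell types at P0 and for FAPs and SCs at P2, P5 and P8 (columns), as log2FC from edgeR, blue lower and red higher in culture, limited to ±8. Dots mark called members and grey cells were not tested. All 6 AP-1 rows are blue with dots in the 6 P0 columns, and colours of members with few UMIs depend on the fit.

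Counted as UMIs per cell, 15 of 38 members were lower and 7 higher in every donor in FAPs (9 donors), 17 and 6 in SCs (9), 22 and 2 in VECs (9), 18 and 7 in SMMCs (7) and 31 and 1 in macrophages (7). Among genes with a mean level of at least 10 CPM, the share lower in every donor was 46.7% of 30 members and 6.75% of all genes in FAPs, 54.8% of 31 and 2.41% in SCs, 61.8% of 34 and 3.28% in VECs, 58.1% of 31 and 2.25% in SMMCs, and 88.2% of 34 and 9.76% in macrophages. The share higher in every donor was 20.0% of those members and 81.6% of all genes in FAPs, 16.1% and 83.2% in SCs, 5.88% and 73.3% in VECs, 22.6% and 71.7% in SMMCs, and 2.94% and 24.1% in macrophages. JUN went from a mean of 12.09 UMIs per FAP in muscle to 4.919 at P0, HSPA1A from 12.84 to 1.31 and CLK1 from 1.906 to 0.4545, each lower in 9 of 9 donors. CEBPD went from 4.849 to 31.08 UMIs per FAP, higher in 9 of 9. In macrophages, whose depth differed least (6108 and 7568 UMIs per cell), JUN went from 24.16 to 2.432.

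To compare cells at equal depth, each was thinned to 1500 UMIs. FOS was then seen in 60.34% ± 13.42 of muscle FAPs (SD, n = 10 donors) and in 2.253% ± 0.865 of P0 FAPs (n = 9), and before thinning in 79.77% and 21.31%. In SCs the thinned shares were 75.02% and 4.37%, and in VECs, 235 of which were shallower and left out in muscle, 73.1% and 1.137%. HSPA1A was seen in 66.72% and 8.121% of FAPs and in 88.15% and 5.683% of VECs, and CEBPD in 62.79% and 82.2% of FAPs. No followed type is known to lack these genes, so no background share could be set beside them. A thinned muscle cell held a UMI of 9.961 members on average in FAPs up to 15.22 in macrophages, and a cultured cell of 3.412 to 4.695.

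Types were closer to each other at P0 than in muscle, among the members and among all genes alike. Over the 6 types measured at both times, the range between the highest and the lowest type was smaller at P0 for 34 of 38 members, with a median of 2.32 in muscle and 1.64 at P0 on the log2 scale. Among genes with a mean level of at least 10 CPM it was smaller for 29 of 33 members (87.9%) and for 80.9% of all genes, whose median range went from 1.517 to 0.996. The sums were not brought to equal depth here: LECs held 254421 UMIs in muscle and 1719894 at P0. FAP markers were also found in P0 SCs and macrophages, as given above. The part of either in the narrowing was not tested. Between SCs and FAPs, 18 of 32 members had a mean at least 1.5 times higher in SCs in muscle and 4 had it at least 1.5 times higher in FAPs, and at P0 these numbers were 4 and 0. At a mean level of at least 10 CPM the share at least 1.5 times higher in SCs went from 56.7% to 10.0% of 30 members and from 20.7% to 10.6% of all genes. The share at least 1.5 times higher in FAPs went from 10.0% to 0.0% of those members and from 19.2% to 7.08% of all genes. The median ratio of SCs to FAPs went from 1.855 to 1.07. JUN went from 3.15 to 1.02, ATF3 from 7.08 to 1.03 and HSPA1A from 4.07 to 1.1, whereas FOS, at 2.16 and 2.07, FOSB, at 4.39 and 2.91, and BTG1, at 2.67 and 1.89, were at least 1.5 times higher in SCs at both times. KLF2, a low-level member, went from 0.602 to 2.03.

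**Figure D4:**
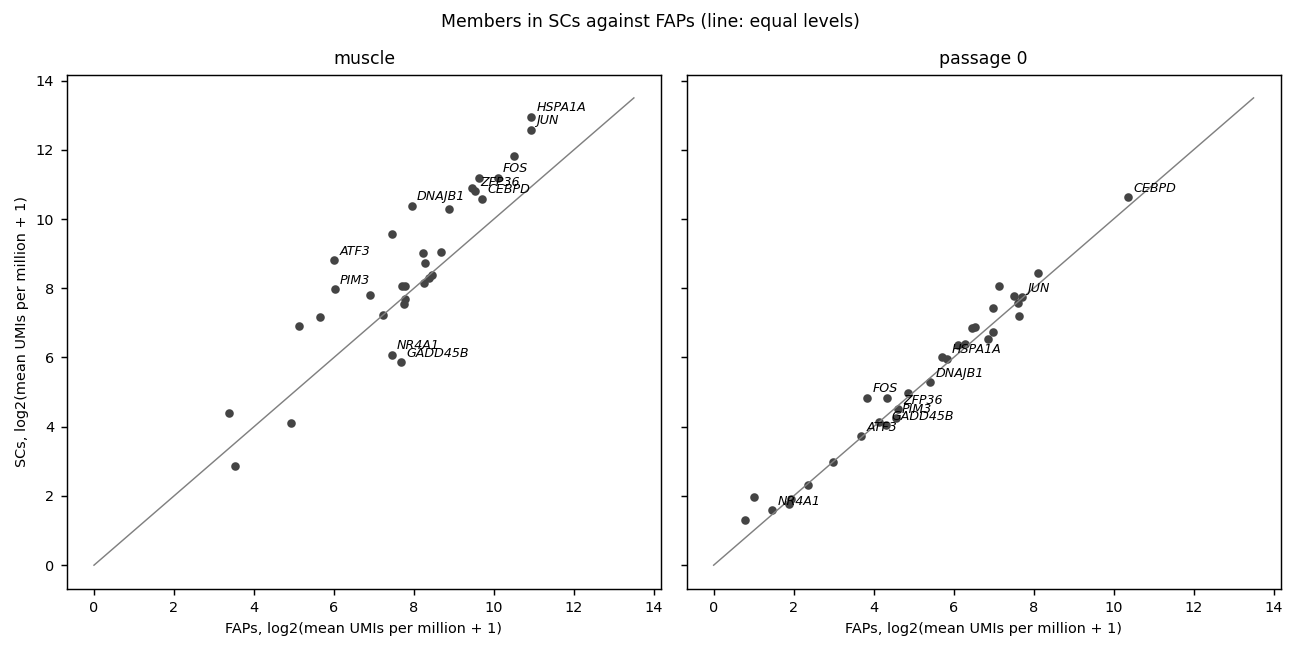
Mean CPM of 32 members in SCs (vertical) against FAPs (horizontal) on log axes, in muscle and at P0. Each point is 1 member and the line marks equal levels. In muscle 18 points lie at least 1.5 times above the line, and at P0 4 do.

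The difference between types in the change from muscle to P0 was tested as an interaction, a test added after the data were seen. Against FAPs, 11 of 32 members fell further in SCs (7.6% of all genes had a lower log2FC there) and 3 fell less (12.4% had a higher one). ATF3 had the largest difference downward (−2.71 ± 0.34, adjusted p = 3.99e-08), followed by DNAJB1 (−2.49 ± 0.46, adjusted p = 3.47e-05). NR4A1 (1.82 ± 0.51, adjusted p = 0.00456), KLF2 (1.74 ± 0.45, adjusted p = 0.00188) and GADD45B (1.60 ± 0.26) were the 3 that fell less. KLF2 rests on few counts, with 19 UMIs in all muscle SCs and 58 in P0 SCs. In VECs 18 of 34 members changed further downward than in FAPs (13.8% of all genes) and 1, BTG2, less (1.03 ± 0.40, adjusted p = 0.032; 11.8%). DUSP1 differed by −4.07 ± 0.22 (adjusted p = 2.08e-18), and the larger difference of DUSP2 rests on 1 UMI in P0 VECs. With sums thinned to the smallest total 2 of 27 members differed in SCs and 5 of 29 in VECs, beside 3.58% and 8.09% of all genes.

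At P0 the types were again compared with the rest of their donors' cells, most of which were FAPs. In FAPs 3 of 33 members were lower and 0 higher, where 9.36% and 2.9% of all genes were: FOSB (−1.19 ± 0.37), CSRNP1 (−1.15 ± 0.23) and ATF3 (−1.10 ± 0.24). SCs had 2 of 34 higher (4.87% of all genes), FOS (1.12 ± 0.23, 9 of 9 donors) and FOSB (1.55 ± 0.38), and 1 lower (6.76%), the ERK phosphatase DUSP5 (−1.46 ± 0.35). VECs had 8 higher and 6 lower of 33 (13% and 14.1% of all genes). CSRNP1 ranged from 14.39 to 32.08 in VECs and from 3.315 to 6.492 in the rest (log2FC 2.62 ± 0.14, adjusted p = 8.75e-14) and PIM3 from 87.48 to 114.4 and from 18.33 to 28.97 (2.24 ± 0.07). NR4A2 (−2.95 ± 0.44), CEBPB (−1.74 ± 0.40) and CEBPD (−1.55 ± 0.09) were the lower VEC members with the largest differences, and KLF4, higher in VECs of muscle, was lower in VECs of culture (−1.26 ± 0.17). With sums thinned to the smallest total 1 of 19 tested members and 5.39% of all genes were called in VECs.

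With such thinning 0 members were called in SCs, SMMCs and LECs at P0, beside 2.16%, 1.56% and 0.497% of all genes. SMMCs at P0 had 2 higher (NR4A1, 1.59 ± 0.34, and GADD45B, 1.34 ± 0.24) and 2 lower (NR4A2, −1.89 ± 0.49, and KLF4, −1.76 ± 0.28) of 34 members, where 5.23% and 5.91% of all genes were. Macrophages had 4 of 32 higher (6.62%) and 0 lower (5.95%). NFKBIA ranged from 379.8 to 872.2 in macrophages and from 171.4 to 267.4 in the rest (log2FC 1.45 ± 0.19), with ATF3 (1.42 ± 0.35), IER3 (1.32 ± 0.20) and BTG1 (1.24 ± 0.14) also higher. None of these 4 was called in macrophages with thinned sums, where JUNB, with a log2FC of −0.119 before thinning, was the 1 member called (3.815, adjusted p = 0.0276; 3.79% of all genes). LECs had 5 higher and 2 lower of 32 (8.41% and 11.5%). With DESeq2 scaling, which moved the median of all genes by 0.044, they had 8 higher and 1 lower. The share of all genes called under that scaling was not set beside this count. PIM3 (1.44 ± 0.17) and NFKBIA (1.44 ± 0.20) led the higher ones. HSPA1A was lower (−1.05 ± 0.25), and SOCS3, the feedback inhibitor of cytokine receptors, had 0 UMIs in LECs and 372 in the rest, at least 1.46 times lower.

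Later passages were followed in FAPs and SCs. These groups mix kinds of culture. FAPs at P2 include 19 and 12 cells of donors 5 and 10, whose cultures were sorted SCs. FAPs at P5 include 593, 31 and 70 cells of donors 5, 6 and 10, all sorted SC cultures, and FAPs at P8 include 231, 542 and 172. SCs at P2 include 95, 50 and 18 cells of donors 4, 7 and 8, which were sorted FAP cultures. SCs at P5 include 10 cells of donor 4. From P0 to P2 in FAPs 6 of 36 members were higher and 3 lower, where 10.7% and 10.3% of all genes were. KLF4 went from 24.75 to 30.17 at P0 (median 28.4) to 50.69 to 101.4 at P2 (median 71.98, log2FC 1.43 ± 0.18, adjusted p = 6.1e-09) and HSPA1A from 37.45 to 86.45 to 90.84 to 178.7 (log2FC 1.11 ± 0.37, adjusted p = 0.00955). Both were higher in 8 of 8 donors and the ranges did not overlap. NR4A1 (2.34 ± 0.33), FOSB (2.00 ± 0.45) and FOS (1.96 ± 0.40) were higher in 7 of 8 donors and NR4A3 (1.83 ± 0.57) in 6. FOS medians were 11.62 at P0 and 50.53 at P2, still below the lowest muscle donor (590.4). SOCS3 (−2.17 ± 0.32), DUSP5 (−2.003 ± 0.413) and HSPH1 (−1.21 ± 0.19) were lower. Donor 10, with 12 FAPs at P2, was the donor in which FOS, FOSB and NR4A1 were not higher. In donor 5, also a sorted SC culture, FOS went only from 15.44 to 15.99 CPM, while FOSB went from 0.4644 to 6.398. At P2 FOS stood at 10.67 in donor 10 and at 39.55 to 83.12 in the donors of other cultures. With sums thinned to the smallest total 0 of 30 members and 0.729% of all genes were called and FOS had the opposite sign (log2FC −0.376).

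Between P2 and P5 in FAPs 1 member was lower (0.907% of all genes), FOSB (−1.51 ± 0.45, adjusted p = 0.0377), and 0 were higher (0.915%). Comparing P2 and P5 alone called 0 members, and cultures of the same kind called 3, with no share of all genes set beside these counts. From P5 to P8 NR4A1 (1.28 ± 0.31, adjusted p = 0.00796) and FOS (1.23 ± 0.38, adjusted p = 0.0422) were higher, each in 8 of 9 donors, where 0.624% of all genes were higher, and 0 were lower (0.549%). FOS ranged from 4.516 to 40.03 at P5 (median 19.92) and from 9.463 to 117.4 at P8 (median 47.82), with overlap, and its call was lost without the filter on low counts (adjusted p = 0.0556) or with P5 and P8 fitted alone (0.0995), which left 1 call. Neither was called with sums thinned to the smallest total, nor was any other gene.

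In SCs NR4A1 (2.01 ± 0.53, adjusted p = 0.00271) was higher at P2 than at P0 in 8 of 9 donors and SOCS3 lower (−1.54 ± 0.34) in 9 of 9, where 8.52% and 4.76% of all genes were. In the sorted SC cultures NR4A1 moved little, from 0.6747 to 1.416 CPM (donor 5), 2.7 to 2.845 (donor 6) and 3.933 to 2.552 (donor 10). The SCs of the other donors held 0 to 3.664 at P0 and 5.583 to 26.45 at P2. From P2 to P5 FOS (−1.64 ± 0.37, lower in 5 of 7 donors) and DUSP1 (−1.21 ± 0.23, lower in 6 of 7) were lower and 0 members were higher, where 1.07% and 0.858% of all genes were. Without donors cultured as another population 0 were called, and with sums thinned to the smallest total 0 members were called at each of the 3 steps between passages in SCs, beside 0.585% of all genes from P0 to P2 and 0 genes at the later steps. From P5 to P8, with 4 donors left, IER3 went from 75.24 to 234 to 271.5, 313.7, 344.7 and 482.3 (log2FC 1.49 ± 0.33, adjusted p = 0.0147) and DUSP1 from 31.14 to 60.37 to 88.8, 116.8, 122.2 and 176.8 (1.26 ± 0.29, adjusted p = 0.0169), where 0.415% of all genes were higher. Neither gene's ranges overlapped. CLK1 stood at 8.149, 8.88, 11.59 and 24.11 at P8 (−1.17 ± 0.31, adjusted p = 0.0394; 0.341% of all genes were lower). Leaving out donor 6 took the calls of DUSP1 and CLK1 away, donor 9 that of DUSP1 and donors 1 and 10 that of CLK1 (adjusted p 0.0539 to 0.154).

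Set against muscle, which all 3 passages share as the reference, 27 of 36 members were lower in FAPs at P2, 29 at P5 and 27 at P8, where 18.3%, 18% and 19.3% of all genes were. In SCs 27, 27 and 26 of 33 were lower (17%, 16.8% and 17.9%), with BTG1 added at P5 by donor as a replicate block (log2FC −1.03, adjusted p = 3.3e-07). FOSB had a log2FC of −5.37 ± 0.44 and CLK1 of −4.38 ± 0.15 in P8 FAPs, and FOSB of −6.48 ± 0.98 and HSPA1A of −5.90 ± 0.66 in P8 SCs. SOCS3 had 1 UMI in P8 SCs against 56 in muscle (48.7 times lower, interval 8.39 to 1960). IER3 was the only higher member at P8, in FAPs (200.6 to 515.6 against 158.1 to 354.1 in muscle, log2FC 1.15 ± 0.18, adjusted p = 4.37e-07, 9 of 9 donors) and in SCs (log2FC 1.18 ± 0.32, adjusted p = 0.00221, 4 of 4), where 20.1% and 18.7% of all genes were higher. At P2 and P5 0 members were higher than in muscle in FAPs (19.3% and 19.6%) or SCs (19.2% and 18.4%). CEBPD was thus not called higher after P0. In P8 SCs it was called lower than in muscle without donor 6 (log2FC −1.01, adjusted p = 0.0285) or donor 9 (−1.048, adjusted p = 0.0191). The summed share of the module, CEBPD included, stayed between medians of 0.3386% and 0.4094% in FAPs and 0.3097% and 0.3584% in SCs from P2 to P8. With sums thinned to the smallest total 14, 14 and 12 of 30 members were lower in FAPs (7.38%, 7.28% and 7.23% of all genes called in either direction) and 16 and 10 of 28 in SCs at P5 and P8 (4.37% and 3.39%).

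**Figure D5:**
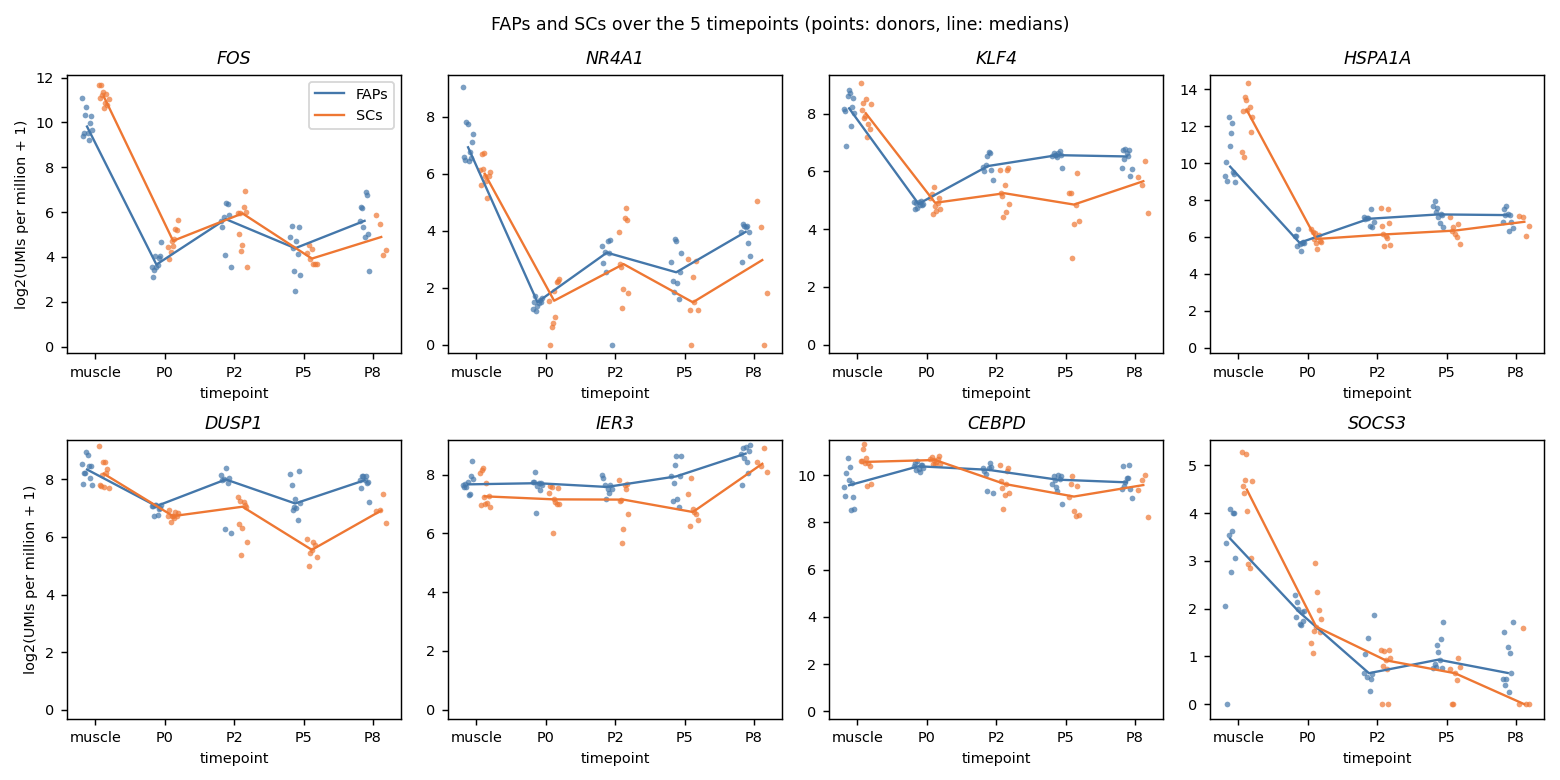
Levels of FOS, NR4A1, KLF4, HSPA1A, DUSP1, IER3, CEBPD and SOCS3 in FAPs and SCs in muscle and at P0, P2, P5 and P8, as log2 of CPM plus 1. Points are donors and lines join medians. FOS medians in FAPs are 908 in muscle and 11.62, 50.53, 19.92 and 47.82 in culture, and IER3 at P8 in FAPs has a median of 418.5 against 202 in muscle.

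Further genes of the same response were counted from 3 lists. Of other early response genes, 4 of 32 tested were higher and 16 lower at P0 than in muscle in FAPs, 4 and 13 of 30 in SCs and 3 and 20 of 30 in VECs. Over all genes the higher and lower shares were 23.8% and 21.5% in FAPs, 19.1% and 19.7% in SCs, and 15.6% and 19.6% in VECs. HES1, a Notch and serum response repressor, was lower in FAPs (log2FC −3.72 ± 0.34; 139 to 393.5 in muscle and 5.95 to 24.76 at P0) and in SCs (−5.63 ± 0.32), and SPRY2, an inhibitor of receptor tyrosine kinase signalling, in FAPs (−3.66 ± 0.22). The cytokine IL6 was higher in FAPs (5.74 ± 0.53; 0 to 36.58 in muscle and 254.2 to 648.6 at P0). It was also higher in SMMCs (6.579 ± 0.436), macrophages (7.845 ± 0.546) and LECs (8.006 ± 1.115, with 0 UMIs in muscle). Its values in SCs and VECs are not given here. Of other heat shock genes 7 of 16 were higher and 2 lower in FAPs, 3 and 5 of 16 in SCs and 2 and 3 of 15 in VECs. The mitochondrial chaperonin HSPD1 ranged from 141.6 to 361.5 in muscle FAPs and from 742.8 to 1238 at P0 (log2FC 2.51 ± 0.20), and HSPA4, an HSP70 nucleotide exchange factor, was also higher (2.12 ± 0.14), whereas HSPB8 (−1.96 ± 0.18) and DNAJB4 (−1.74 ± 0.15) were lower. Of upstream regulators 5 of 20 were higher and 0 lower in FAPs, 3 and 0 of 18 in SCs and 0 and 1 of 16 in VECs, so the share higher in FAPs was near that of all genes.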

How the data were processed

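Libraries were made with the Chromium 3′ v3.1 kit, 1 per timepoint. Per the labels, the authors aligned reads with Cell Ranger 6.0.1 to ARS-UCD1.2 (Ensembl genes) and deposited UMI counts per gene and cell. Donors were assigned by demuxlet, which marks doublets only where their donors differ, and doublets were not called in any other way. The deposited cell types, donors and timepoints were taken from the authors' metadata, which also holds the percent of mitochondrial UMIs computed by the authors (medians 2.1146% to 3.8071% across libraries). A deposited combined table of depth-corrected values was not used. Cells without a deposited cell type were left out. Age class and culture kind came from the study's description of its donors.

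Raw UMI counts were summed per donor, cell type and library (at least 10 cells) and fitted over all genes that passed the low-count filter with edgeR 4.0.16 (TMM scaling, robust quasi-likelihood F tests, 2-sided) in R 4.3.3, with Benjamini-Hochberg adjustment over all genes tested. Standard errors were derived from F, as log2FC over its square root. For timepoints, 1 fit per type held all timepoints. DESeq2 1.42.0, no low-count filter, at least 30 cells per sum, donor as a replicate block, sums thinned to the smallest total, only the timepoints compared, and each donor left out where a group had 5 or fewer were alternatives. Ratios with 0 to 3 UMIs in a group used exact intervals or a floor of 3 counts. The edgeR fit was tested on simulated data with known changes, but the outcome is not given here. Levels and figures were made with pandas 2.3.3, numpy 2.4.6, scipy 1.17.1 and matplotlib 3.10.9.

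Donors pair the sums because the same animals were sampled. Donor was not a term of the main fits and entered only as the replicate block of the alternatives. Deviations from group means of the same donor had correlations of −0.023 to 0.163 between muscle and P0 FAPs and of 0.23 to 0.79 between P5 and P8 FAPs. Between muscle FAPs and the rest they were 0.05 to 0.335. The 5 libraries held 20977722 to 252316585 UMIs. Per-donor values were given for the 12 members with the highest mean level in muscle, and each comparison names the called members with the 2 largest log2FC in each direction that moved the same way in every donor having both groups. Further members are named where they show how a role group behaved or had few UMIs, and these were chosen after their values were seen. The limit of 10 CPM for counts over all genes was chosen after the data were seen. The members and lists were chosen with earlier results of these data known.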

Additional observations from a re-analysis of the deposited data

Results flagged for a closer look

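Among the 12 members with the highest level in muscle, 8 of 84 groups of donors held 1 donor farther from the others than Dixon's 95% value allows, where chance gives about 1 in 20. Donor 5 stood above the other macrophage sums for JUN, at 5377 CPM (UMIs scaled to 1000000 per sum) against 2597 to 3705, and for DUSP1, at 2456 against 1486 to 1938. Donor 7 stood below the other VEC sums for ZFP36, at 1125 against 1874 to 2615, and for EGR1, at 402.2 against 776.4 to 1274. Donor 8 was low for KLF6 in macrophages (695.4 against 1026 to 1374) and for NFKBIA in SCs (83.76 against 194.4 to 408.5). Donor 3 was low for JUND in FAPs (403.0 against 669.2 to 880.6), and donor 2 high for EGR1 in SMMCs (3719 against 1141 to 2091).

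The change from muscle to P0 differed from that in FAPs by an interaction test in edgeR. In SCs the difference in log2FC was 1.82 for NR4A1 (adjusted p = 0.00456) and 1.74 for KLF2 (0.00188, with 19 UMIs in muscle SCs). It was −2.71 for ATF3 (adjusted p = 3.99e-08) and −2.49 for DNAJB1 (3.47e-05). In VECs it was 1.03 for BTG2 (adjusted p = 0.032), −4.07 for DUSP1 (2.08e-18) and −6.17 for DUSP2 (2.13e-07), the last resting on 1 UMI at P0.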

How the results depend on the processing

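Thinning each sum to the smallest total of its fit was the alternative that changed most. The number of called members was then 5 in muscle SCs, 5 in SMMCs, 4 in macrophages, 3 in lymphocytes and 0 in LECs. Between P0 and muscle it was 15 in FAPs, and against muscle 14, 14 and 12 in FAPs at P2, P5 and P8 and 16 and 10 in SCs at P5 and P8. Between passages it was 0 in FAPs and SCs at each step. Against the rest at P0 it was 0 in SCs, 1 in VECs, 0 in SMMCs, 1 in macrophages and 0 in LECs, and in 2 and 5 members the change to P0 differed from that in FAPs in SCs and VECs. Thinning gave FOS a log2FC of −0.376 from P0 to P2 in FAPs (adjusted p = 1.0) and JUNB one of 3.815 in P0 macrophages against the rest (adjusted p = 0.0276, reported −0.119), and the cause was not tested.

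Without the low-count filter 11 members were called in muscle LECs and 1 from P5 to P8 in FAPs. No share of all genes is set beside the counts of this paragraph, so they show only how the number of member calls moved. With donor as a replicate block 13 were called in muscle LECs, and the block moved no other count of calls by over 1.5 times. With at least 30 cells per sum 3 were called from P2 to P5 in FAPs and 1 from P5 to P8 in SCs. Fitting only the 2 timepoints called 0 from P2 to P5 and 1 from P5 to P8 in FAPs, and 1 from P0 to P2 and 1 from P2 to P5 in SCs. Cultures of the same kind, chosen after the data were seen, gave 3 from P2 to P5 in FAPs and 0 in SCs. Leaving out each donor gave 4 to 8 calls in muscle LECs, 21 to 21 in LECs between muscle and P0, 1 to 2 from P5 to P8 in SCs, 26 to 28 in P8 SCs against muscle and 0 to 0 between calves and adults.

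Donor 5, whose number of muscle FAPs was far above the others, was left out after the data were seen, which gave 29, 26, 29, 25 and 29 called members between muscle and P0 in FAPs, SCs, VECs, SMMCs and macrophages. In muscle it gave 17 in FAPs, 9 in SCs, 7 in VECs, 11 in SMMCs, 8 in macrophages and 18 in lymphocytes, and 32 over all types. All counts without donor 5 take both directions together and have no share of all genes beside them. They show only how the number of member calls moved. DESeq2 brought 8 values of named members past the threshold and took 2 below it, the replicate block 9 and 0, and thinning 6 and 53. At 500 UMIs per cell FOS was seen in 33.82% of muscle FAPs and 0.6607% of P0 FAPs, in 53.26% and 1.253% of SCs and in 45.22% of muscle VECs, and HSPA1A in 42.76% and 2.995% of FAPs, 67.31% and 3.055% of SCs and 73.38% and 1.808% of VECs.

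Depth limits EGR2 in muscle and members with few UMIs in P0 VECs, macrophages and LECs. EGR2 was also near the floor in deep sums, with 7 UMIs over the P0 FAPs of 9 donors (mean 0.05353 CPM). Each timepoint is 1 library, so p-values measure the spread between donors within those libraries.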

Other observations

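Early response genes outside the module also differed between the types of fresh muscle by edgeR's quasi-likelihood test. In FAPs 2 of 27 tested were higher than in the rest and 14 lower (9.36% and 12.5% of all genes), with SPRY2 (log2FC 2.49, adjusted p = 7.66e-09) and PTGS2, the inducible cyclooxygenase (1.46, adjusted p = 0.000253), as the higher ones and ID1, a BMP target (−3.38, adjusted p = 2.22e-09), the lowest. In VECs 9 of 28 were higher and 4 lower (11.2% and 12.5% of all genes), led by EDN1, the endothelial vasoconstrictor (5.25, adjusted p = 7.29e-11), and ID1 (4.63, adjusted p = 5.65e-11). SMMCs had 4 higher, among them the YAP target CCN2 (2.89, adjusted p = 5.53e-07), and 7 lower of 27 (8.04% and 13.4% of all genes). Macrophages had 9 higher and 8 lower of 27 (11.4% and 18.6% of all genes), with TNFAIP3, a brake on NF-κB, higher (3.10, adjusted p = 6.19e-10).

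Against the same shares of all genes, of 16 other heat shock genes 0 were higher and 4 lower in FAPs, with the small chaperones CRYAB (−2.33) and HSPB1 (−1.63) among the lower, and 3 were higher and 1 lower in SMMCs, where CRYAB (2.53) and HSPB1 (1.64) were higher. CRYAB in SMMCs had a mean of 1085 CPM that fell to 481.2 without donor 8, which stood at 6515, and it was higher than in the rest in 8 of 10 donors. Of 17 upstream regulators 5 were higher and 0 lower in VECs, led by MRTFB, a coactivator of SRF (2.52), and the ETS factor ELK3 (2.20), which were lower in FAPs (−1.38 and −1.23).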
